A study of Laccaria bicolor with 4 samples.

Results

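Across the genome of the basidiomycete Laccaria bicolor, 89 long unbroken runs of expressed genes held 5535 of the 23125 listed genes. A run was a stretch of at least 30 consecutive genes on 1 scaffold, in order of start and end, in which every gene had a mean TPM above 0.05 in untreated mycelium. TPM is the length-scaled share that a gene takes of all transcripts in a library. The genes were therefore selected on their untreated TPM, and everything that follows from that choice, including their levels in untreated mycelium, is given as a description without a test. The runs held 36.8% of the 15059 genes expressed in untreated mycelium and 23.9% of all genes. Comparisons are made with the other 9524 expressed genes, which lay in shorter stretches, and with the 8066 genes at or under 0.05 TPM.

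The mycelium was of the haploid strain S238N-H82, entered as Orton S238N-H82 in the sample labels, and was collected after 8 weeks in liquid medium. In 1 group of 2 libraries, vitamin C had been added to 5 mM and the culture kept with it for 2 days, and the other group of 2 libraries came from untreated mycelium of the same strain. Vitamin C was given in the study to raise the amounts of oxidized 5-methylcytosines, since vitamin C is a cofactor that helps TET enzymes to stay active. The submitters call the libraries biological replicates without saying what separates them, so p-values measure only the spread between these libraries. All libraries came from 1 strain grown in liquid medium, without a host plant. After removal of ribosomal RNA, stranded libraries were prepared from the RNA above 200 nt. No name could be given to the identifiers of the gene models, of which 0 of 23125 were found in the RefSeq annotation of the first assembly. Genes are therefore named by V2 genome position, the mycelium could not be checked against marker genes, and no product, function or sequence is given. The values came from whole mycelium, in which fewer cells that transcribe a gene and less RNA per cell cannot be told apart.

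L. bicolor is an ectomycorrhizal fungus, which lives in symbiosis with the roots of trees, and its genome is rich in transposable elements. In fungi, genes lie close together, often with short intergenic regions, and neighbours may be read from the same strand, away from each other (divergent) or towards each other (convergent). Genes that lie side by side are in most cases transcribed separately, each from a promoter of its own. A long run of expressed genes is thus a stretch of the genome without a silent gene between its neighbours, and need not be a single transcription unit.

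Depth was highest in vitamin C replicate 1. Aligned bases, from the ratio of coverage to FPKM, came to 5.65 and 4.27 Gb with vitamin C and 4.20 and 4.40 Gb in untreated mycelium. The median coverage of the 5535 genes in runs, the mean read depth over their exons, was 90.3 and 60.01 with vitamin C and 63.1 and 73.8 in untreated mycelium. The threshold of 0.05 TPM was far below these values, at a mean depth of 0.176 and 0.138 in the vitamin C libraries and 0.142 and 0.141 in the untreated libraries. Genes near the threshold thus rested on few reads. An exact 0 can also be a failed estimate, and such genes are described as listed at 0.

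The runs were a small part of all stretches of expressed genes. Expressed genes formed 1642 stretches, with a median of 4 genes, and 379 of them held a single gene. The 89 runs were 5.42% of these stretches. They held between 30 and 213 genes, with a median of 49 (interquartile range 34 to 75), and spanned between 57.3 and 479 kb, with a median of 112 kb. Their total span was 12.2 Mb, or 20.1% of the span of the scaffolds from first to last gene. Of the 89 runs, 29 held 30 to 39 genes and 44 held 50 genes or more. The 14 runs of 100 genes or more held 1831 genes. The limit of 30 genes cut through a continuous distribution of lengths: 7 runs had 30 genes and 4 had 31, while 5 stretches had 29 genes and 7 had 28.

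**Figure D1:**
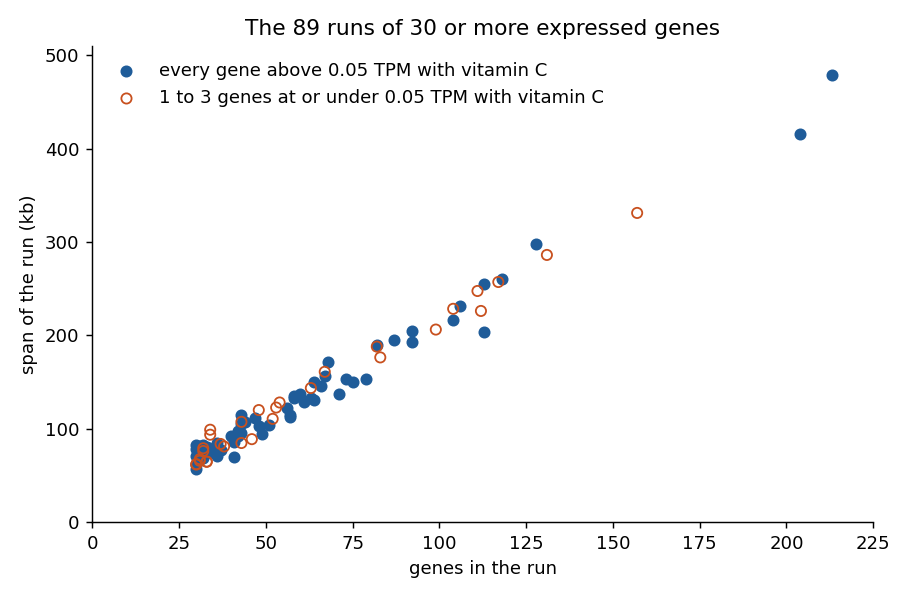
Number of genes (x axis) against span in kb (y axis) of each of the 89 runs. Filled points are the 59 runs in which every gene had a mean TPM above 0.05 with vitamin C, and open points are the 30 runs in which 1 to 3 genes did not. Span grew with the number of genes along a narrow band, and open points lay among both short and long runs.

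The longest run held 213 genes on linkage group 1, from position 5115693 to 5594854. The second held 204 genes on linkage group 3, from 1951995 to 2368128, and the third held 157 genes on the same linkage group, from 1554830 to 1886014. These were followed by a run of 131 genes on linkage group 6 (1982356 to 2268560) and a run of 128 genes on scaffold 12 (1094389 to 1392116). The next 5 in length held 112 to 118 genes. They lay on linkage group 1 (5600051 to 5860130, 118 genes), scaffold 19 (58158 to 315400, 117 genes), scaffold 11 (1928275 to 2183066, 113 genes), linkage group 1 (4688355 to 4892151, 113 genes) and linkage group 2 (1955148 to 2181376, 112 genes). The longest run by genes was also the longest by span. The shortest by span, 57.3 kb, held 30 genes on linkage group 8, from 1004521 to 1061784.

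The runs lay on 15 of the 54 scaffolds. Linkage group 1 held 18 runs with 1158 genes and linkage group 3 held 17 runs with 1145 genes. These genes were 24.1% of the genes of linkage group 1 and 36.7% of those of linkage group 3. The highest shares were on smaller scaffolds. Scaffold 19 had 158 of its 226 genes (69.9%) in 2 runs, and scaffold 12 had 362 of its 662 genes (54.7%) in 4 runs. At the other end, linkage group 7 had 34 of 917 genes (3.71%) in a single run, and linkage group 5, with 1235 genes of which 523 were expressed, had no run at all. The longest stretch of expressed genes on linkage group 5 held 27 genes.

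Many runs were ended by a single gene. Of the 178 ends of runs, 98 lay beside a single non-expressed gene followed by another expressed one, 28 beside 2 to 4 non-expressed genes, 35 beside 5 to 9, and 17 beside 10 or more. Over all scaffolds, non-expressed genes formed 796 stretches of 2 to 9 genes and 223 of 10 or more. These held 3352 and 4062 of the 8066 non-expressed genes, and the rest stood singly, so single non-expressed genes were not particular to the ends of runs. No run reached the end of a scaffold. Of the 159 genes that flanked the runs, 136 were listed at 0 in both untreated libraries. The same held for 7823 of all 8066 non-expressed genes, a larger share. On the same scaffold, 19 of 74 neighbouring pairs of runs were separated by a single gene, 9 by 2 to 10 genes and 46 by more than 10. The 19 single separators spanned 162 to 1835 bp, with a median of 649 bp. Of these, 10 were listed at 0 in all 4 libraries, 10 overlapped another gene model, and 0 reached a mean above 0.05 TPM with vitamin C.

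Runs separated by single genes formed 16 chains that together held 35 runs. The largest chain was on linkage group 3, from 1554830 to 2368128, where 394 of 396 consecutive genes over 813 kb were expressed. It joined 3 runs, among them the second and the third longest. The next was on linkage group 1, from 5115693 to 5860130, where 331 of 332 consecutive genes over 744 kb were expressed. The gene that split it, on the plus strand from 5597367 to 5597921, was listed at 0 in all 4 libraries.

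The threshold on TPM passed through values that rested on few reads. The members nearest above it had mean untreated values of 0.0536 TPM (linkage group 1, 2222624 to 2223553), 0.0537 TPM (linkage group 7, 1778589 to 1779290) and 0.0549 TPM (linkage group 3, 4073662 to 4074077). The flanking genes nearest under it had 0.0476 TPM (linkage group 2, 1702093 to 1703749), 0.0471 TPM (linkage group 3, 2368645 to 2371013) and 0.0395 TPM (scaffold 11, 1340901 to 1342355). Few members were that low, since 25 of the 5535 had a mean untreated TPM between 0.05 and 0.1. The first of these flanking genes stood at 0 TPM in both vitamin C libraries and at 0.0952 and 0 TPM in untreated mycelium. The second, which ended the run of 204 genes, had 0.1 and 0.217 TPM with vitamin C, against 0.0466 and 0.0475 TPM in untreated mycelium. Of the 159 flanking genes, 10 had a mean above 0.05 TPM with vitamin C, the highest at 4.11 TPM. Among all 8066 non-expressed genes, 206 had such a mean, a smaller share than among the flanking genes.

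Most genes in runs stood far above the threshold. Their median TPM was 25.6 and 21.7 in the vitamin C libraries and 22.2 and 26.1 in the untreated libraries, so that the libraries of the 2 conditions overlapped. The other expressed genes had medians of 11.2 and 9.56 TPM with vitamin C and 9.80 and 11.4 TPM in untreated mycelium. The interquartile range of genes in runs was 7.62 to 65.5 TPM for the vitamin C mean and 8.15 to 66.6 TPM for the untreated mean. A mean under 1 TPM was found for 334 genes in runs with vitamin C (6.03%) and 262 in untreated mycelium (4.73%), against 17.3% and 16.3% of the other expressed genes. Genes in runs were 23.9% of all genes and 36.8% of the expressed genes. They held 43.2% of all TPM with vitamin C and 43.3% in untreated mycelium. The rule left out the non-expressed genes, which held 0.00064% of untreated TPM, so the share of expressed genes is the closer base. Of the 5535 genes, 5425 (98.0%) were above 0.05 TPM in each of the 4 libraries, against 92.6% of the other expressed genes, and 3668 (66.3%) had at least 10 TPM in each, against 46.0%.

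**Figure D2:**
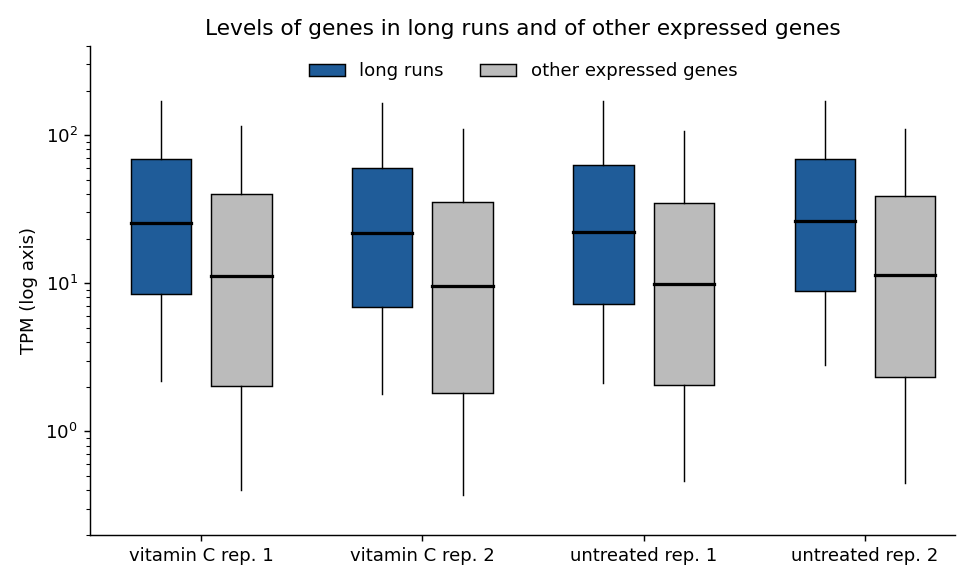
TPM on a log axis (y axis) in each of the 4 libraries (x axis) for the 5535 genes in long runs and the 9524 other expressed genes. Boxes span the interquartile range with the median as a line, and whiskers reach the 10th and 90th percentiles. Medians of genes in runs lay between 21.7 and 26.1 TPM in the 4 libraries and those of the other expressed genes between 9.56 and 11.4 TPM.

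Levels within a run differed by orders of magnitude. The ratio of the highest to the lowest untreated mean within a run was between 150 and 68745, with a median of 3188. The widest range was in a run of 34 genes on linkage group 4, from 3036266 to 3129988, and the narrowest in a run of 32 genes on linkage group 2, from 2200492 to 2269409. Between runs, the medians were closer together, from 5.82 to 56.8 TPM with vitamin C and from 6.99 to 54.1 TPM in untreated mycelium. A run of 73 genes on linkage group 1, from 4920675 to 5074346, had the highest untreated median. Its medians were 58.8 and 48.2 TPM in the vitamin C libraries and 46.9 and 60.4 TPM in the untreated libraries, and none of its genes had an untreated mean under 4.09 TPM. The lowest untreated median was that of a run of 31 genes on linkage group 3, from 7530323 to 7596096, with 6.66 and 5.69 TPM with vitamin C and 6.01 and 6.13 TPM in untreated mycelium. The next highest was the narrow run on linkage group 2, with 58.9 and 49.1 TPM with vitamin C and 53.9 and 59.5 TPM in untreated mycelium. The next lowest was a run of 38 genes on scaffold 14, from 97196 to 178355, with 8.02 and 6.78 TPM with vitamin C and 8.12 and 8.66 TPM in untreated mycelium. The differences between high and low runs were thus several times larger than those between libraries within a run.

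The highest and lowest genes of the 5 longest runs show the range that a single run can hold. In the run of 213 genes, the highest gene (5217475 to 5219152) had 1034 and 1212 TPM with vitamin C and 980 and 1071 TPM in untreated mycelium. The lowest gene of the same run (5352928 to 5353772) had 0.182 and 0.0665 TPM with vitamin C and 0.0672 and 0.0451 TPM in untreated mycelium. Both lay inside a larger gene model, so that their reads may be shared with it. The gene listed before the lowest had 38.7 and 42.8 TPM with vitamin C and 44.4 and 37.0 TPM in untreated mycelium, and the gene after it had 12.8 and 21.8 TPM with vitamin C and 16.8 and 8.91 TPM in untreated mycelium. The gene closest to the threshold in the longest run thus stood between neighbours that were far higher in every library.

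In the run of 204 genes, the highest gene (2310077 to 2311357) had 1630 and 1417 TPM with vitamin C and 1453 and 1495 TPM in untreated mycelium. The lowest, a model of 177 bp (2159513 to 2159689), had 0.424 and 0.582 TPM with vitamin C and 0.357 and 0.0799 TPM in untreated mycelium. The conditions overlapped for the highest gene, and for the lowest both vitamin C values were above the untreated ones, without passing the test (limma adjusted p = 0.498). In the run of 157 genes, the highest (1612362 to 1614676) had 645 and 645 TPM with vitamin C and 791 and 724 TPM in untreated mycelium. The lowest (1695864 to 1697299) had 0.201 and 0.0916 TPM with vitamin C and 0.05 and 0.0985 TPM in untreated mycelium. Here the lowest gene overlapped between conditions, while the highest was lower in both vitamin C libraries, by less than the test required (limma adjusted p = 0.510). In the run of 131 genes, the highest (2086177 to 2087267) had 2582 and 3010 TPM with vitamin C and 2902 and 2235 TPM in untreated mycelium. The lowest (2267145 to 2268560) stood at 0 TPM in each vitamin C library and at 0.0904 and 0.127 TPM in untreated mycelium. This lowest gene was the last of its run, and the gene before it had 777 and 680 TPM with vitamin C and 649 and 502 TPM in untreated mycelium. A gene close to the threshold thus lay beside one of the higher genes of its run. In the run of 128 genes, the highest (1247195 to 1248071) had 509 and 568 TPM with vitamin C and 620 and 503 TPM in untreated mycelium. The lowest (1257107 to 1258306) had 0.222 and 0.000603 TPM with vitamin C and 0.308 and 0.888 TPM in untreated mycelium. The highest genes kept their order of magnitude in every library, and the lowest varied more between replicates.

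**Figure D3:**
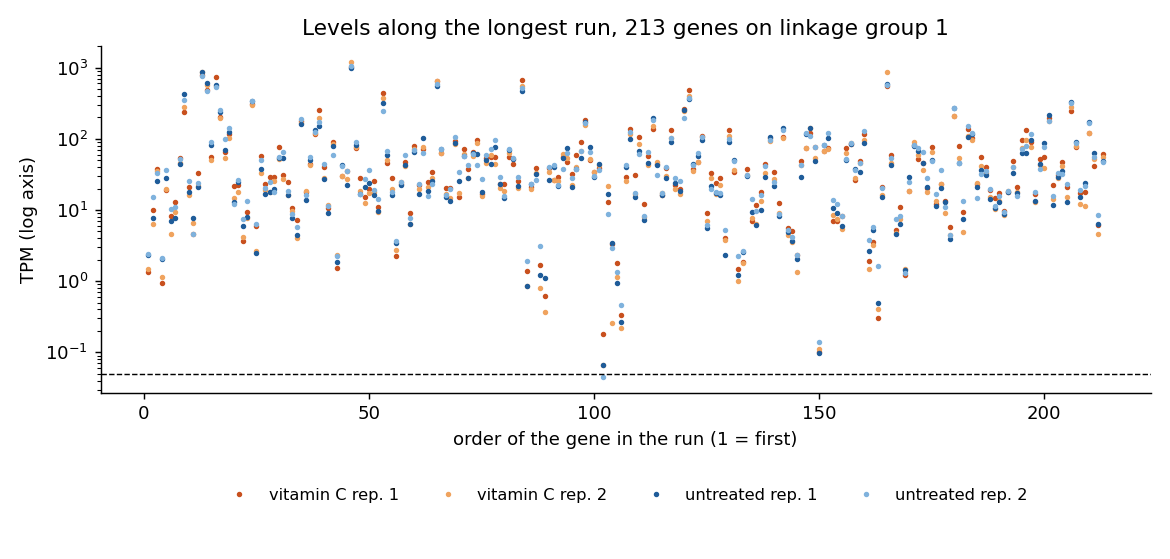
TPM on a log axis (y axis) of each gene of the longest run against its order in the run (x axis), for the 2 vitamin C and the 2 untreated libraries. Each point is 1 gene in 1 library, the dashed line is 0.05 TPM and values listed at 0 are not drawn. High and low genes alternated along the run, and the 4 libraries of a gene lay close together compared with the distance between genes, except for the lowest genes.

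Levels were lower at the ends of runs than inside. The 178 first and last genes had a median of 16.03 TPM with vitamin C and 17.1 TPM in untreated mycelium, and 18.0% and 15.2% of them were under 1 TPM. The 2865 genes that lay 16 or more positions from both ends had medians of 25.7 TPM with vitamin C and 26.5 TPM in untreated mycelium, with 4.99% and 3.77% under 1 TPM. The 712 genes in positions 2 to 5 from an end had medians of 23.3 TPM with vitamin C and 25.7 TPM in untreated mycelium. The 1780 genes in positions 6 to 15 had medians of 21.0 and 21.3 TPM, so that levels did not climb steadily inwards and the lower level was that of the outermost gene. By length of the run, the 947 genes in runs of 30 to 39 genes had medians of 16.5 TPM with vitamin C and 17.1 TPM in untreated mycelium, against 25.5 and 26.7 TPM for the 1831 genes in runs of 100 genes or more. The shortest runs held few or no genes 16 or more positions from both ends. Position and length of the run were therefore not separated in the innermost genes.

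Genes lay more densely in the runs than in long non-expressed stretches, and about as densely as in shorter expressed stretches. Over all runs there were 45.5 genes per 100 kb, against 43.3 in expressed stretches of 10 to 29 genes, 45.7 in those of 2 to 9 genes, 38.9 in non-expressed stretches of 2 to 9 genes and 33.4 in those of 10 genes or more. The median per stretch was 45.4 for runs, 44.7 for the short non-expressed stretches and 35.1 for the long ones. The value over all scaffolds was 38.2. Spans ran from the first to the last gene of a stretch, without the flanking gaps, which raises the values of short stretches most. Gene models covered 81.2% of the span of runs, 70.02% of expressed stretches of 10 to 29 genes and 42.1% of the long non-expressed stretches. The models in runs were longer, with a median of 1526 bp from start to end, against 1292 bp for the other expressed genes and 837 bp for non-expressed genes. Those of at most 300 bp were 2.85% of genes in runs, 6.37% of the other expressed genes and 14.1% of non-expressed genes. Genes share scaffolds and are not replicates, so these differences carry no test.

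Single runs ranged from 34.3 to 58.5 genes per 100 kb. The densest run held 41 genes on scaffold 19, from 316289 to 386432, and the next, at 55.4 genes per 100 kb, was the run of 113 genes on linkage group 1 that started at 4688355. The sparsest was the single run of linkage group 7, with 34 genes from 1730355 to 1829416, and the next, at 36.3 genes per 100 kb, was the run of 34 genes on linkage group 4 with the widest range of levels. The largest gap between neighbouring models inside a run was 14209 bp, in the run of 113 genes on scaffold 11. Between neighbours in runs, the median gap was 220 bp, against 485 bp between the other neighbouring expressed genes and 940 bp between neighbouring non-expressed genes.

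Models in runs overlapped more often. Of the 5535 models in runs, 1482 (26.8%) overlapped another model, against 16.2% of the other expressed genes and 5.42% of non-expressed genes. The libraries were stranded, but the sources used here do not state the strand setting of the quantification, and the values of overlapping models may hold shared reads. Of the 5446 pairs of neighbours in runs, 44.2% lay on the same strand, 27.9% were divergent and 27.9% convergent. Numbers were skipped in the identifiers between 394 of these pairs (7.23%), against 13.8% of all neighbouring pairs of listed genes. What lies at the skipped numbers was not analysed here, so a run is unbroken among the listed genes.

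Neighbours in runs resembled each other only slightly in level. Over the 5446 pairs, the Spearman correlation of log2(TPM + 1) between neighbours was 0.147 and 0.139 in the vitamin C libraries and 0.137 and 0.150 in the untreated libraries. These are descriptions across genes, which share library and position and are not independent replicates. The median absolute difference between neighbours was 1.85 on the log2(TPM + 1) scale in both condition means. For the mean of each condition, 29.9% of pairs with vitamin C and 30.02% in untreated mycelium lay within 2-fold on this scale, and 1277 untreated pairs (23.4%) differed by more than 10-fold. In untreated mycelium, 207 pairs had both genes at 100 TPM or more, and 61 pairs had 1 gene under 1 TPM and the other at 100 TPM or more. Among the other expressed genes, 7971 neighbouring pairs had a correlation of 0.158 with vitamin C and 0.182 in untreated mycelium, so that the correlation in runs was no higher than in shorter stretches; this difference was not tested.

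Part of the likeness within runs was between whole runs. After the median of each run was removed, the correlation between neighbours was 0.095 with vitamin C and 0.095 in untreated mycelium. It fell off within a few genes. Between genes 2 positions apart it was 0.089 with vitamin C and 0.089 in untreated mycelium before the run median was removed, and 0.037 and 0.039 after. Between genes 3 positions apart it was 0.046 and 0.046 before, and -0.011 and -0.012 after. Neighbours on the same strand had correlations of 0.167 with vitamin C and 0.172 in untreated mycelium, divergent neighbours had 0.154 and 0.150, and convergent neighbours had 0.084 and 0.084. For pairs whose models did not overlap, the values were 0.169 and 0.170 on the same strand, 0.154 and 0.149 for divergent and 0.093 and 0.092 for convergent pairs. Convergent neighbours were thus the least alike in both conditions, also without overlapping models. This order was not particular to runs. Among the other expressed genes, the correlations with vitamin C and in untreated mycelium were 0.217 and 0.233 on the same strand. They were 0.131 and 0.158 for divergent and 0.071 and 0.105 for convergent neighbours.

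**Figure D4:**
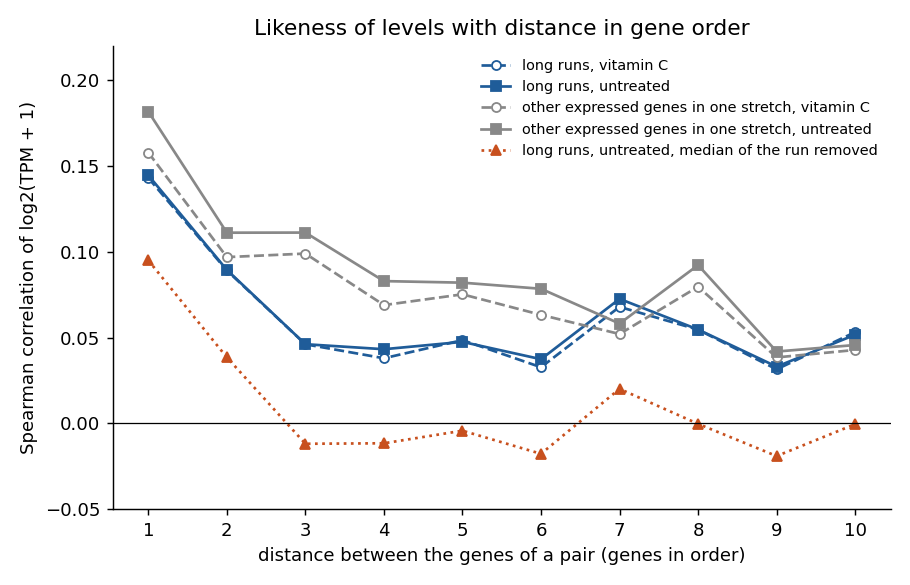
Spearman correlation of log2(TPM + 1) (y axis) between genes 1 to 10 positions apart (x axis), for pairs within long runs and for pairs of other expressed genes within 1 stretch, in the vitamin C mean and the untreated mean. For pairs in runs, the untreated values after removal of the median of each run are also shown, and fell to -0.012 at 3 positions.

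Neighbours in runs also shared little of the differences between libraries. The correlation between neighbours of the difference between the replicates was 0.034 with vitamin C and 0.050 in untreated mycelium, against 0.164 and 0.209 for the other expressed genes. For the difference between vitamin C and untreated means, it was 0.058 in runs and 0.106 among the other expressed genes. The differences between neighbours of the same library were in each case much larger than the differences of a gene between libraries, whose median size in runs was 0.222 between the vitamin C replicates and 0.259 between the untreated replicates on the log2(TPM + 1) scale.

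With vitamin C, 59 of the 89 runs stayed unbroken, that is, every gene had a mean vitamin C TPM above 0.05. They held 3675 genes. The other 30 runs were broken by 1 gene (22 runs), 2 genes (6 runs) or 3 genes (2 runs), and in 19 of them at least 30 consecutive expressed genes remained. Both of the longest runs, of 213 and 204 genes, stayed unbroken, and they were among 8 unbroken runs of the 14 with 100 genes or more. In all, 40 of the 5535 genes (0.723%) were at or under 0.05 TPM with vitamin C. Over all genes expressed in untreated mycelium, 303 of 15059 (2.01%) were. Since the untreated values chose the genes, they were above the threshold there by construction. For these runs, the counts with vitamin C therefore have no counterpart in untreated mycelium. Runs chosen from the vitamin C mean and read in the untreated mean are given below.

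The breaking genes were low in untreated mycelium too. Their median untreated TPM was 0.146, and 33 of the 40 had less than 0.5 TPM. In the vitamin C libraries 27 of them were listed at 0 in both. In untreated mycelium, 28 of them were above 0.05 TPM in only 1 of the 2 libraries and 12 in both, and 8 genes were above 0.05 TPM in both untreated libraries and listed at 0 in both vitamin C libraries. Of the 40, 13 overlapped another model. Their 76 neighbours in runs had a median of 14.7 TPM with vitamin C and 18.8 TPM in untreated mycelium, and most breaks were single low genes between genes that stayed expressed. In 1 place, 2 breaking genes lay side by side.

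The 6 breaking genes with the highest untreated level show how few libraries they rested on. Each of the first 5 was listed at 0 in the vitamin C libraries. The first, on scaffold 14 (108623 to 108944), had 16.5 and 0 TPM in untreated mycelium, and the second, on linkage group 10 (3178830 to 3180449), had 10.8 and 0 TPM. Both overlapped another model, and in both the second untreated library was also at 0. A gene on linkage group 3 (3550904 to 3551130) had 1.58 and 0 TPM in untreated mycelium. For a gene on linkage group 8 (1639779 to 1640091) and 1 on scaffold 12 (114622 to 114856), the first untreated library was at 0, and the second had 1.69 TPM and 1.23 TPM. These 5 genes therefore did not separate the conditions. The sixth, on linkage group 3 (4038644 to 4038934), had 0 and 0.0554 TPM with vitamin C, against 0.599 and 0.563 TPM in untreated mycelium, with no overlap between the groups and a log2(TPM + 1) change of -0.62 (SE 0.16, adjusted p = 0.266 from limma), which did not pass the test.

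Loss of a gene with vitamin C followed its level. Of the genes in runs between 0.05 and 0.1 TPM in untreated mycelium, 15 of 25 were at or under 0.05 TPM with vitamin C, against 92 of 182 of the other expressed genes at that level. Between 0.1 and 0.5 TPM, 18 of 119 (15.1%) were lost in runs and 16.6% of the others. Between 0.5 and 1 TPM, 5 of 118 (4.24%) were lost in runs and 16 of 577 (2.77%) of the others. Between 1 and 10 TPM, 2 of 1319 were lost in runs and 19 of 3084 of the others. Above 10 TPM, 0 of 3954 genes in runs and 4 of 4885 others were lost. Genes under 0.5 TPM were 144 of the 5535 in runs and 978 of the 9524 others, a difference in level that moved with the lower share of lost genes in runs.

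Single libraries of both conditions broke the runs. The 89 runs were unbroken in 49 and 44 cases in the vitamin C libraries and in 56 and 71 cases in the untreated libraries that had chosen them. In all, 53 and 68 of the 5535 genes were at or under 0.05 TPM in single libraries with vitamin C, against 45 and 20 in untreated mycelium. Of the 89 runs, 33 with 1963 genes were unbroken in each of the 4 libraries, and the longest of them was the run of 204 genes on linkage group 3. The longest run of all, of 213 genes, had no gene at or under 0.05 TPM in either vitamin C library or in untreated replicate 1, and 2 such genes in untreated replicate 2.

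When runs were found anew in 1 library and read in another, the numbers within a condition overlapped those between conditions. The 76 runs of vitamin C replicate 1 were unbroken in 51 cases (67.1%) in vitamin C replicate 2, and in 55 and 61 cases (72.4% and 80.3%) in the untreated libraries. The 79 runs of vitamin C replicate 2 were unbroken in 61 cases (77.2%) in vitamin C replicate 1, and in 61 and 66 cases (77.2% and 83.5%) in the untreated libraries. For vitamin C libraries, runs were thus broken no less often by the other vitamin C library than by the untreated ones. The 78 runs of untreated replicate 1 were unbroken in 53 and 54 cases (67.9% and 69.2%) in the vitamin C libraries and in 60 cases (76.9%) in untreated replicate 2. The 84 runs of untreated replicate 2 were unbroken in 54 and 46 cases (64.3% and 54.8%) in the vitamin C libraries and in 52 cases (61.9%) in untreated replicate 1. The value within untreated mycelium thus lay above both vitamin C values in the first case and between them in the second.

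**Figure D5:**
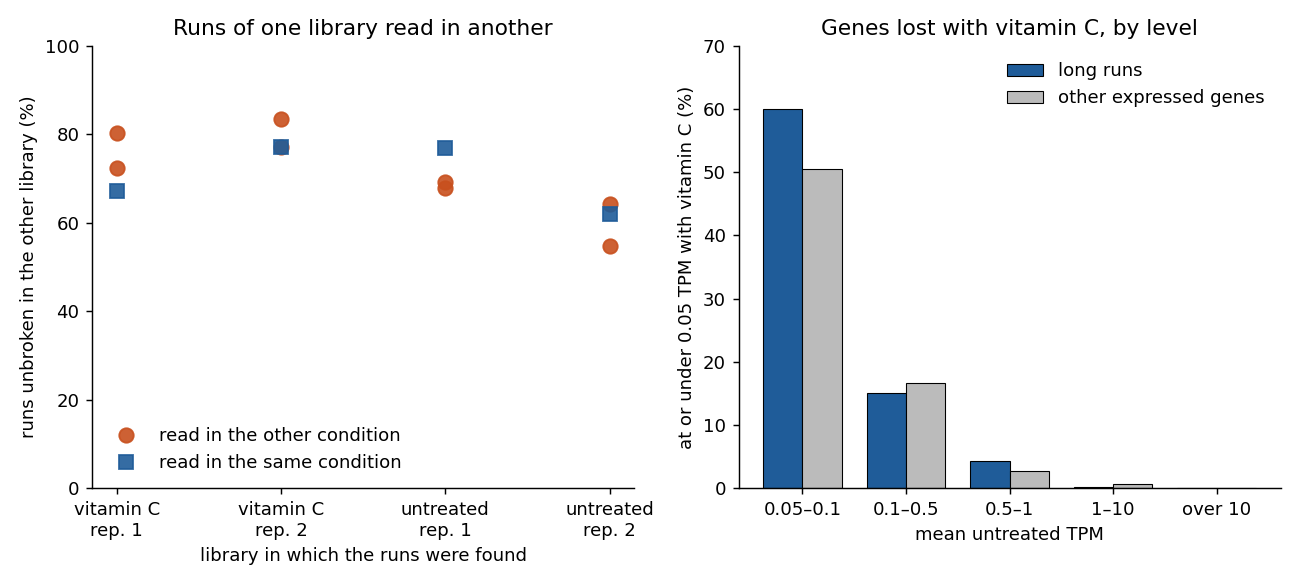
Left: share of the runs found in 1 library (x axis) that were unbroken in another library (y axis, %), where squares are the other library of the same condition and circles are the libraries of the other condition. Right: share of genes expressed in untreated mycelium (y axis, %) that were at or under 0.05 TPM with vitamin C, by mean untreated TPM (x axis), for genes in long runs and other expressed genes. The square lay below both circles, level with the lower one, above both and between them from left to right, and losses were concentrated under 0.5 TPM in both sets of genes.

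Runs found from the vitamin C mean in place of the untreated mean were close to those of untreated mycelium. There were 85 runs with 5068 genes, and 75 of these runs (88.2%) were unbroken in the untreated mean. There, 10 of the genes (0.197%) were at or under 0.05 TPM. In the other direction, 59 of 89 runs (66.3%) were unbroken with vitamin C, and 40 of 5535 genes (0.723%) were lost. This difference was not tested. The 2 lists shared 4884 genes, which were 96.4% of the genes in runs with vitamin C and 88.2% of those in untreated mycelium. The longest run had 213 genes in both conditions.

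In the fit of 2 against 2 libraries without a replicate block, 1 gene in runs passed the test of vitamin C against untreated mycelium. Of the 5535 genes, 5523 passed the filter of a 4-library mean TPM above 0.05 and entered the test, and limma with Benjamini-Hochberg adjustment over all 15107 genes tested called 0 of them higher and 1 lower at an adjusted p under 0.05. Over all genes tested, 0.0463% were called higher and 0.0463% lower. At an unadjusted p under 0.05, 241 genes in runs were higher (4.36%) and 524 lower (9.49%), against 4.98% and 8.13% of all genes tested. The median change was -0.04 on the log2(TPM + 1) scale in runs and -0.02 over all genes tested, and 61 genes in runs (1.10%) differed by more than 1 on this scale, against 1.58% of all genes. The untreated libraries of this comparison also chose the genes, so these counts are descriptions.

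Differences of genes in runs had similar median sizes between single replicates and between condition means, which each average 2 libraries. The median size of the difference was 0.232 between the condition means, against 0.222 between the vitamin C replicates and 0.259 between the untreated replicates. The signed median difference of genes in runs was -0.18 between vitamin C replicates 2 and 1 and 0.17 between untreated replicates 2 and 1, against -0.05 between the condition means, on the log2(TPM + 1) scale. Run by run, the median difference of replicate 2 from replicate 1 was under 0 in 88 of 89 runs with vitamin C and over 0 in 89 of 89 runs in untreated mycelium. Between the condition means, the median difference of a run was between -0.24 and 0.10, and it was under 0 in 69 runs and over 0 in 20. The replicate differences of the conditions had opposite signs. A mean of 2 libraries averages over such differences, so it cannot be set directly against a single library. The shifts of runs between conditions were not tested.

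The gene that was called lower was gene_19267, a model of 536 bp on the plus strand of linkage group 9, from 1321191 to 1321726, in a run of 106 genes. It had 19.0 and 18.8 TPM with vitamin C, against 61.6 and 82.4 TPM in untreated mycelium, with no overlap between the groups. Its log2(TPM + 1) change was -1.86 (SE 0.20, adjusted p = 0.0389 from limma), and the adjusted p was above 0.05 without the filter and without the variance trend. Over the alternatives that kept all 4 libraries, the limma adjusted p was between 6.74e-05 and 0.395. With each library left out, the change stayed between -2.07 and -1.65. Such a fit has a single library in 1 group and cannot decide on a call, so none is given. This gene lay almost wholly within a model on the minus strand (1321195 to 1323502), which had 21.7 and 15.8 TPM with vitamin C and 19.0 and 19.0 TPM in untreated mycelium. The gene listed before it had 9.66 and 7.46 TPM with vitamin C and 6.68 and 7.03 TPM in untreated mycelium. For the minus-strand model the groups overlapped, and for the gene before it the values with vitamin C were slightly higher.

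The 2 genes in runs that came next, chosen after their values were seen, were both higher with vitamin C and did not pass the test. A gene on scaffold 12 (150640 to 151649) had 248 and 287 TPM with vitamin C, against 92.9 and 59.3 TPM in untreated mycelium, a change of 1.83 (SE 0.23, limma adjusted p = 0.0654). Another, on linkage group 1 (4804459 to 4805833), had 44.3 and 58.8 TPM with vitamin C, against 16.7 and 17.0 TPM in untreated mycelium, a change of 1.55 (SE 0.21, limma adjusted p = 0.0773). In neither gene did the groups overlap. The second lay inside another model on the same strand (4804459 to 4808098), which started at the same position. That model had 18.9 and 14.2 TPM with vitamin C and 23.8 and 25.3 TPM in untreated mycelium, the opposite direction. Reads may be shared between these models, and this was not tested.

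The highest gene in any run differed little between conditions. This gene, on linkage group 4 (3095632 to 3096944), had 6896 and 7142 TPM with vitamin C and 6874 and 7056 TPM in untreated mycelium, with overlapping groups. It lay in the run with the widest range of levels. At a mean of 1000 TPM or more there were 46 of the 5535 genes in runs with vitamin C and 42 in untreated mycelium. Of the 9524 other expressed genes, 88 and 85 were at that level, so such genes were not more frequent in runs.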

How the data were processed

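RNA above 200 nt from vitamin C-treated and untreated L. bicolor mycelium was sequenced after removal of ribosomal RNA, in 2 libraries per condition. The authors trimmed reads (BBDuk), aligned them to the V2 genome (hisat2), removed duplicates (samtools markdup 1.12) and quantified annotated genes (StringTie 2.0.3); FastQC, HISAT2 and SAMtools also stand in the submitters' processing notes. The deposited TPM values sum to 1000000 per library. FPKM, as deposited, is scaled by aligned bases and by gene length, and the deposited coverage is mean read depth, unscaled. These are not read counts, so no count model and no counting interval was used. Depth was taken from the ratio of coverage to FPKM.

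Genes were ordered by scaffold, start and end, and runs of at least 30 genes with a mean untreated TPM above 0.05 were taken. The genes, lists and alternatives were chosen with earlier results of these data known. The test between conditions was limma-trend (limma 3.58.1, R 4.3.3) on log2(TPM + 1), which understates changes of low genes, over 15107 genes with a mean TPM above 0.05. Run detection and the fit were checked on simulated data. Other values were computed with pandas 2.3.3, scipy 1.17.1 and numpy 2.4.6 under Python 3.11.15, and plots were drawn with matplotlib 3.10.9. Named were genes past the test, the highest and lowest gene of the 5 longest runs, the 6 breaking genes with the highest untreated mean, the 3 genes on either side of the threshold, and the longest, densest, sparsest, highest and lowest runs. Other genes named were chosen after their values were seen. Alternatives covered pseudocount, filter, FPKM, scaling, variance trend, replicate block, each library left out, thresholds, nested models and the source of the runs.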

Additional observations from a re-analysis of the deposited data

How the results depend on the processing

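The number of runs depended on both limits of the definition. It was 48 runs with 2398 genes at a mean above 1 TPM, of which 26 stayed unbroken with vitamin C, and 179 at 20 genes or more, of which 125 stayed unbroken. With each untreated library left out, 78 to 84 runs held 4762 to 5221 genes. With a library left out, 44 to 62 runs stayed unbroken: 60 of 84 (71.4%) and 62 of 78 (79.5%) without untreated replicates 1 and 2, and 44 (49.4%) and 49 (55.1%) of 89 without vitamin C replicates 1 and 2. The correlation of neighbours was 0.137 to 0.150 with each untreated library left out. Spacing was 43.3 genes per 100 kb without nested models. Members called higher were 2 with a filter of 1 TPM, where 13 of all genes tested were called higher, and 2 at an adjusted p under 0.1. Members called lower were 0 without a filter and 0 without a trend, where 3 of all genes tested were called lower in each. Calls with a library left out are not given, since the lone library of a condition is then assumed to vary like the others. Of 61 alternatives, 43 left the value within the spread or within 1.5 times. Some of these could not move, such as a rank correlation under another pseudocount and the spacing without scaffolds of under 100 kb, which held no run. Counts of 0 that stayed at 0 were also among them, so the tally does not measure how firm the results are.

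The labels do not say whether the replicate numbers mark pairs. The differences between the replicates of the 2 conditions had a correlation of -0.256 across genes, which does not settle this. With the replicate block, 8 members were higher and 15 lower. Over all genes tested, 43 were called higher and 85 lower with this block. With the crossed pairing, chosen after seeing the data, 38 members were higher and 108 lower. With that pairing, 100 of all genes tested were called higher, and a larger number lower. Members were 5523 of the 15107 genes tested. Of the 40 breaking genes, 28 were above 0.05 TPM in 1 untreated library only. The part of depth in the breaks was not tested. With each library left out, the change of the 1 gene called stayed at -2.07 to -1.65.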
